A study of Oryctolagus cuniculus with 9 samples.

Results

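The genes described here mark myofibroblasts, smooth muscle cells and the mural cells of small vessels, and were chosen by name: ACTA2, TAGLN, CNN1, ACTG2, LMOD1, SMTN, PDGFRA and PDGFRB. Of these 8 genes, 7 had a row among the 20525 genes of the table, and all 7 passed the filter on low counts that kept 17344 genes for testing. CNN1, the calponin gene of smooth muscle, was not analysed here. Polyadenylated RNA of rabbit (Oryctolagus cuniculus) vocal folds was sequenced in 9 libraries, 3 per group. The groups were injured folds given a hydrogel called SOT, injured folds left untreated, which the series calls Control, and normal folds that were not injured. The study title describes the gel as an antioxidant adhesive, the labels do not expand its name, and injured tissue was taken 1 week after injury. The sources used here give neither strain, sex and age of the rabbits nor the way of injury or the dose of gel. Nothing in the labels says that replicates came from different rabbits, so a p-value below covers the variation among these libraries alone, part of which may be technical.

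Smooth muscle cells contract by sliding myosin along actin filaments that are built from dedicated actins, and they do so at low cost for long times. In wound repair, fibroblasts can take on part of this machinery and become myofibroblasts, which are best known for the alpha smooth muscle actin encoded by ACTA2 and which pull on and deposit scar matrix. Mural cells, the pericytes and vascular smooth muscle cells, wrap vessels and depend on PDGF-B from endothelium acting on PDGFRB, while PDGFRA is carried by most connective tissue fibroblasts. In the vocal fold, fibroblasts of the lamina propria lie above the skeletal thyroarytenoid muscle, and a stiff scar in that layer impairs vibration. The genes are not specific to 1 cell type, and in bulk tissue fewer cells of a type and less RNA per cell cannot be told apart.

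Total counts were 48444181 to 49434268 in the SOT libraries, 49771566 to 50338111 in the untreated libraries and 44755718 to 45521838 in the normal libraries, and a floor of 3 counts corresponded to 0.0557 to 0.0692 normalised counts (CPM, from edgeR with TMM scaling), below every value given for a member. The labels name the cell type as histiocytes, which are tissue macrophages, but 10 macrophage markers together reached 811 to 1059 CPM in SOT folds, 1699.9 to 2010.5 CPM in untreated folds and 324 to 394 CPM in normal folds. A list of 21 genes of activated fibroblasts, collagens among them, summed to 23955 to 51959 CPM in SOT folds, 51114 to 56305 CPM in untreated folds and 10680 to 14886 CPM in normal folds. Sums of lists that differ in size and in the level of their genes do not measure cell content. The sample titles name the vocal fold, and the libraries were read as whole tissue. None of the macrophage, fibroblast or skeletal muscle genes used here was at 0 in any library.

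TAGLN and the smooth muscle actin gene ACTG2 rose in untreated injured folds relative to normal folds, while the other smooth muscle actin gene, ACTA2, did not pass. TAGLN encodes the actin-binding protein transgelin (SM22 alpha) and lies on chromosome 1 at 99217021 to 99221429 (build OryCun2.0). TAGLN stood at 292, 609.6 and 124 CPM in SOT folds (replicates 1, 2 and 3), at 525, 498 and 520.1 CPM in untreated folds and at 117, 132 and 72.7 CPM in normal folds. All 3 untreated libraries lay close together and above every normal library, whereas SOT replicate 3 lay within the range of the normal ones. TAGLN rose 4.80-fold in untreated folds relative to normal folds (514 ± 14.4 and 107 ± 30.9 CPM, SD, n = 3 each; log2 fold change 2.26, SE 0.51, adjusted p = 0.0113 by edgeR's quasi-likelihood test with Benjamini-Hochberg adjustment, used for every adjusted p below unless another test is named). The call held under all 16 other settings tried, which include leaving out each of the 9 libraries. In SOT folds relative to normal folds the log2 fold change was 1.67, with an adjusted p of 0.0527 that missed the threshold of 0.05. That value became 0.00462 by DESeq2 and 0.00871 with a log2 fold change of 2.11 without SOT replicate 3. These were the only 2 of the 16 other settings in which it passed. Across the 16 the adjusted p reached 0.141 and the log2 fold change went down to 0.97.

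A separate row on chromosome 15 at 46197754 to 46198845, described in the table as transgelin, held between 9.93% and 22.02% of the TAGLN count in a library. The sources used here do not say how reads that match both copies were assigned, so the division between the rows is uncertain. With the counts of both rows added, a setting chosen after seeing the data, the log2 fold changes were 2.25 in untreated against normal folds (adjusted p = 0.0118) and 1.69 in SOT against normal folds (adjusted p = 0.0521).

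ACTA2, the alpha smooth muscle actin on chromosome 18 at 36853676 to 36870691, had 433, 639 and 152 CPM in SOT folds, 618, 399.6 and 474 CPM in untreated folds and 312, 269 and 169 CPM in normal folds. Every untreated library lay above every normal library, while SOT replicate 3 was the lowest of all 9 and SOT replicate 2 the highest. The means were 408 ± 244, 497 ± 111 and 250.0 ± 73.1 CPM in SOT, untreated and normal folds (SD, n = 3 each). The difference between untreated and normal folds did not pass (log2 fold change 0.99, 95% interval -0.08 to 2.06, adjusted p = 0.136). It passed in 2 of the 16 other settings, with little change in its size but a smaller SE. These were the fits without SOT replicate 3 (SE 0.28, adjusted p = 0.0306) and of these 2 groups alone (SE 0.27, adjusted p = 0.0281). In the main fit the SE was 0.47, from a spread estimated over all 9 libraries, the uneven SOT ones included. Across the 16 the adjusted p reached 0.316. SOT folds did not pass against normal folds either (0.71, interval -0.36 to 1.77, adjusted p = 0.325).

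ACTG2, the gamma smooth muscle actin of visceral muscle on chromosome 2 at 112583261 to 112603751, was the less abundant smooth muscle actin. It had 61.1, 42.9 and 13.4 CPM in SOT folds, 96.2, 73.6 and 76.0 CPM in untreated folds and 33.2, 24.7 and 15.9 CPM in normal folds. The untreated libraries overlapped with neither of the other groups, and SOT replicate 3 was again the lowest of the 9. ACTG2 rose in untreated folds relative to normal folds (81.9 ± 12.4 and 24.6 ± 8.66 CPM, SD, n = 3 each; log2 fold change 1.74, SE 0.50, adjusted p = 0.0288). The call was lost without untreated replicate 1 (adjusted p = 0.0678), untreated replicate 2 (0.0615), untreated replicate 3 (0.0694), normal replicate 2 (0.0790) or normal replicate 3 (0.0862). In SOT folds, ACTG2 averaged 39.1 ± 24.1 CPM, and neither the difference from normal folds (log2 fold change 0.67, adjusted p = 0.373) nor that from untreated folds (-1.07, interval -2.18 to 0.05, adjusted p = 0.412) passed.

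Actin genes have nearly identical coding sequences, so reads may be shared among ACTA2, ACTG2, the striated muscle actins ACTA1 and ACTC1 and the cytoplasmic actin ACTB, and the levels of single actins are uncertain to that extent. Of the summed FPKM (a deposited level that is scaled by gene length) of these 5 actins, ACTA2 made up 8.37% ± 6.34 in SOT folds, 8.61% ± 0.789 in untreated folds and 3.09% ± 1.02 in normal folds (SD, n = 3 each). ACTA1 made up 6.75% ± 4.68 in untreated folds, against 37.0% ± 6.44 in normal folds, and ACTC1 14.3% ± 11.1 in untreated folds, against 41.7% ± 6.32 in normal folds. These striated muscle actins thus held most of the summed FPKM of these 5 actins in normal folds. ACTG1, another cytoplasmic actin, was not part of that sum. ACTB rose in untreated relative to normal folds (log2 fold change 1.40, adjusted p = 0.00329) and ACTA1 fell (-2.89, adjusted p = 0.0135, 0.0609 without untreated replicate 3).

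**Figure D1:**
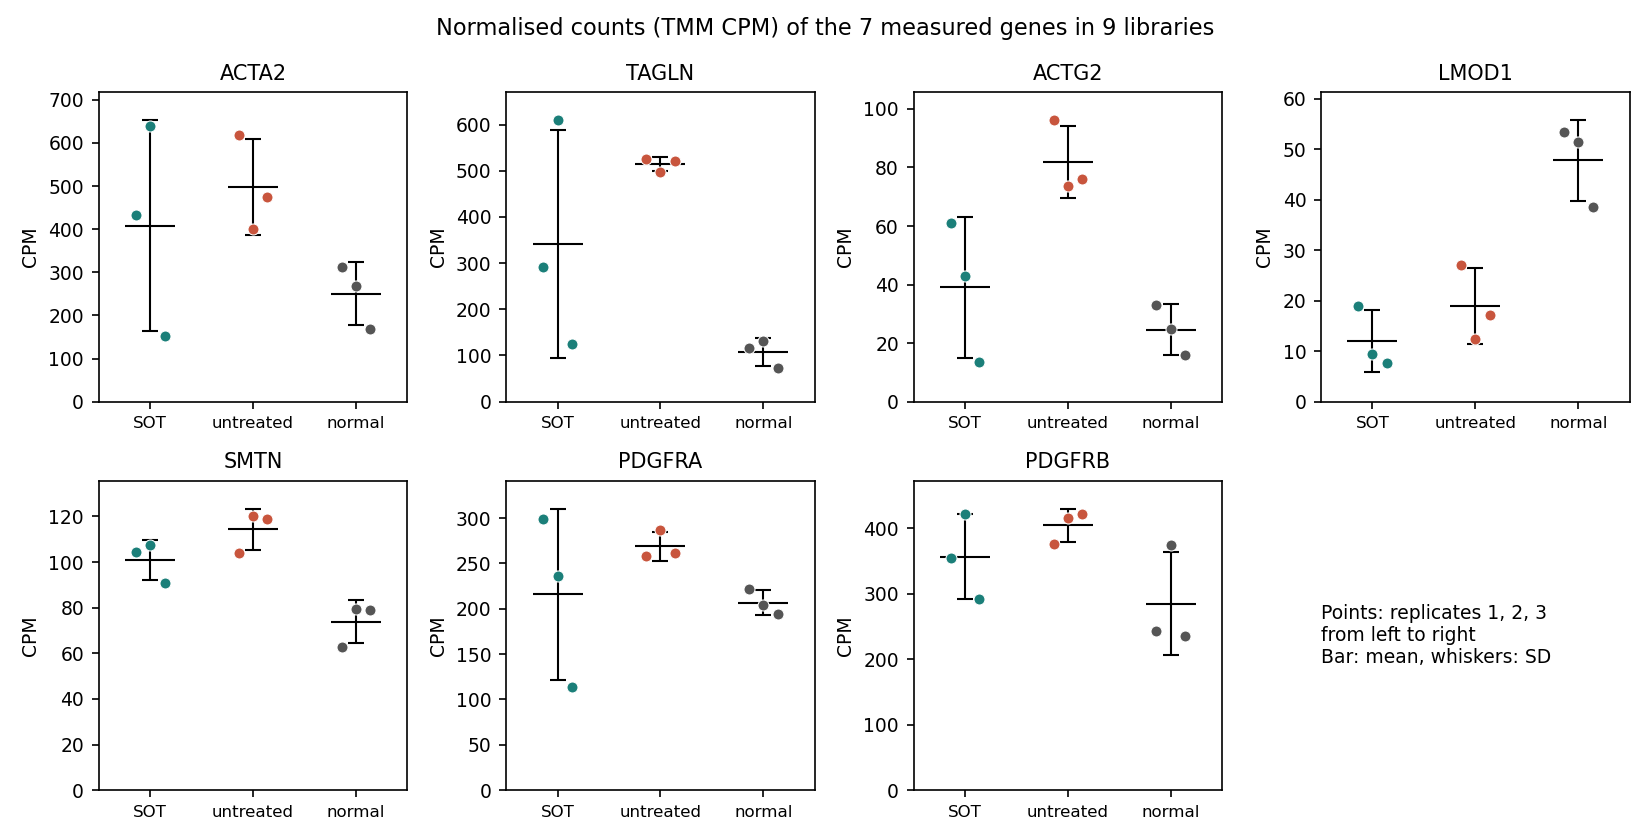
TMM-normalised counts (CPM, y axis, linear, from 0) of the 7 measured genes in SOT, untreated and normal folds; points are replicates 1 to 3 from left to right, the bar is the mean and the whiskers the SD. TAGLN lies at 498 to 525 CPM in the 3 untreated libraries, against 72.7 to 132 CPM in normal ones, LMOD1 runs the other way, and the rightmost SOT point is the lowest of the SOT points in every panel.

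LMOD1 and SMTN, both cytoskeletal genes of differentiated smooth muscle, went opposite ways. LMOD1 encodes leiomodin 1, which seeds new actin filaments in smooth muscle, on chromosome 16 at 69653675 to 69691985. It had 18.9, 9.53 and 7.60 CPM in SOT folds, 27.1, 12.5 and 17.2 CPM in untreated folds and 53.3, 51.4 and 38.7 CPM in normal folds. All 6 injured libraries were below all 3 normal ones. LMOD1 fell in SOT folds relative to normal folds to 0.252 times the level (12.0 ± 6.07 and 47.8 ± 7.97 CPM, SD, n = 3 each; log2 fold change -1.99, SE 0.39, adjusted p = 0.0147), a call that was lost without normal replicate 1 (adjusted p = 0.0510). It also fell in untreated folds (18.9 ± 7.47 CPM, log2 fold change -1.34, SE 0.39, adjusted p = 0.0304). That second call was lost without untreated replicate 2 (adjusted p = 0.0996), untreated replicate 3 (0.103), normal replicate 1 (0.0831) or normal replicate 2 (0.0767).

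Skeletal muscle markers also tended lower in injured than in normal folds (median log2 fold changes -2.38 in untreated and -1.90 in SOT folds), so they stand beside LMOD1. Between SOT and untreated folds the signs differed, at -0.66 for LMOD1 and a median of 0.73 for the markers, and none passed. Cartilage, nerve and resting fibroblast genes fell as well, as given below. Of 17 measured skeletal muscle markers, such as MYL3, CKM and TTN, 10 fell in untreated folds and 2 in SOT folds. Both counts are relative to normal folds, and none rose. Of all tested genes, 15.1% and 7.67% fell in these comparisons. The count in untreated folds was 1 without untreated replicate 2 or 3 or any one of the normal libraries, and 9 to 12 without any one of the others. The count in SOT folds was 4 without untreated replicate 2, 2 without SOT replicate 3 or untreated replicate 1, and 1 otherwise. Their summed level was 8849.8, 1591 and 8338 CPM in SOT folds, 10644, 859 and 4441 CPM in untreated folds and 30363, 24583 and 29089 CPM in normal folds. Within the untreated group LMOD1 and the skeletal sum had the same order of libraries, whereas SOT replicate 3 had the lowest LMOD1 of all 9 and a skeletal sum near that of SOT replicate 1. The part of skeletal muscle content in the LMOD1 result was not tested.

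SMTN encodes smoothelin, a stress fibre protein of contractile smooth muscle, on chromosome 21 at 3539500 to 3561686. It had 104, 107 and 90.9 CPM in SOT folds, 104, 120.0 and 119 CPM in untreated folds and 62.9, 79.6 and 79.2 CPM in normal folds. Each injured library was above each normal library, and the spread within groups was the smallest of the 7 genes in SOT folds (SD of log2 CPM 0.13). SMTN rose in untreated folds relative to normal folds (114 ± 9.09 and 73.9 ± 9.52 CPM, SD, n = 3 each; log2 fold change 0.63, SE 0.13, adjusted p = 0.00736), which held under all 16 other settings. It also rose in SOT folds relative to normal folds (101 ± 8.73 CPM; 0.45, SE 0.13, adjusted p = 0.0435). This second call was kept without SOT replicate 3 (adjusted p = 0.0344) but lost when any one of the other 8 libraries was left out (adjusted p between 0.0554 without untreated replicate 1 and 0.130 without SOT replicate 2). It passed in 4 of the 16 other settings, 3 of them among the 7 that left out no library.

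The PDGF receptor genes, which encode tyrosine kinases of the cell surface, passed in none of the 3 comparisons. PDGFRB, the receptor of pericytes and vascular smooth muscle on chromosome 3 at 31893997 to 31929290, had 355, 422 and 293 CPM in SOT folds, 375, 416 and 422 CPM in untreated folds and 243, 375 and 236 CPM in normal folds. Untreated libraries did not overlap with normal ones, though normal replicate 2 came within 1 CPM of the lowest untreated library, and SOT folds overlapped with both. The difference between untreated and normal folds did not pass (404 ± 25.5 and 285 ± 78.4 CPM, SD, n = 3 each; log2 fold change 0.51, interval 0.03 to 0.99, adjusted p = 0.0954). It passed in 2 of the 16 other settings, 1 of them without normal replicate 2 (0.76, adjusted p = 0.0221), and the adjusted p reached 0.285. In SOT folds PDGFRB averaged 357 ± 64.8 CPM, with log2 fold changes of 0.33 against normal folds (adjusted p = 0.313) and -0.18 against untreated folds (interval -0.66 to 0.30, adjusted p = 0.752).

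PDGFRA, the receptor of fibroblasts, lay on a scaffold not placed on a chromosome and had 299, 236 and 114 CPM in SOT folds, 258, 287 and 261 CPM in untreated folds and 222, 204 and 194 CPM in normal folds. Untreated libraries were narrowly above normal ones, and SOT folds held both the highest and the lowest value. The log2 fold change of untreated against normal folds was 0.38 (269 ± 16.2 and 207 ± 13.8 CPM, SD, n = 3 each; interval -0.29 to 1.05, adjusted p = 0.352, 0.0435 without SOT replicate 3). It passed in 2 of the 16 other settings, without SOT replicate 3 (SE 0.12) and in the fit of these 2 groups alone (SE 0.0997, adjusted p = 0.0269). The SE in the main fit, whose spread is estimated over all 9 libraries, was 0.29. Across the 16 the adjusted p reached 0.540. For SOT folds (216 ± 94.2 CPM) the log2 fold change was 0.06 against normal folds (adjusted p = 0.907) and -0.31 against untreated folds (adjusted p = 0.691).

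Counted together, 3 of the 7 genes rose in untreated folds relative to normal folds (TAGLN, ACTG2, SMTN), 1 fell (LMOD1) and 3 did not pass (ACTA2, PDGFRA, PDGFRB). Over all 17344 tested genes 32.8% passed in this comparison, 17.7% higher and 15.1% lower, so that 3 of 7 higher and 1 of 7 lower stood against a background in which a large part of the transcriptome moved. All 6 genes with a positive estimate had groups without overlap, as did 28% of all genes in that direction, and LMOD1 likewise in the other, as did 27.1%. The median log2 fold change of the 7 genes was 0.63, and that of all tested genes was -0.02. Relative to normal folds, 1 of 7 rose in SOT folds (SMTN), 1 fell (LMOD1) and 5 did not pass, where 16.7% of all genes passed (9.01% higher, 7.67% lower). These 2 genes were also those whose SOT and normal libraries did not overlap, as held for 17.8% of all genes in the higher and 18.6% in the lower direction. The median of the 7 genes was then 0.45, and that of all genes was 0.02. Both comparisons use the same normal libraries.

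SOT folds were compared with untreated folds to ask whether the gel changed these genes in injured tissue. None of the 7 genes passed by edgeR's quasi-likelihood test, none had an unadjusted p under 0.05 and none passed by DESeq2, where 0.0115% of all genes passed by edgeR (2 genes, LOC103345297 and LOC103346274, both lower in SOT folds and neither a member). All 7 estimates were below 0, with a median of -0.31 against 0.01 for all genes. ACTG2 alone had groups without overlap (lower in SOT folds, as were 12.4% of all genes, while 7.4% were wholly higher). The intervals remained wide for the contractile genes: they ran from -1.34 to 0.77 for ACTA2, from -1.70 to 0.52 for TAGLN and from -1.53 to 0.22 for LMOD1. For SMTN the interval was narrower, from -0.47 to 0.11. Without SOT replicate 3 the estimates of ACTA2 and PDGFRA were above 0, at 0.15 (adjusted p = 0.906) and 0.0305 (adjusted p = 0.963).

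**Figure D2:**
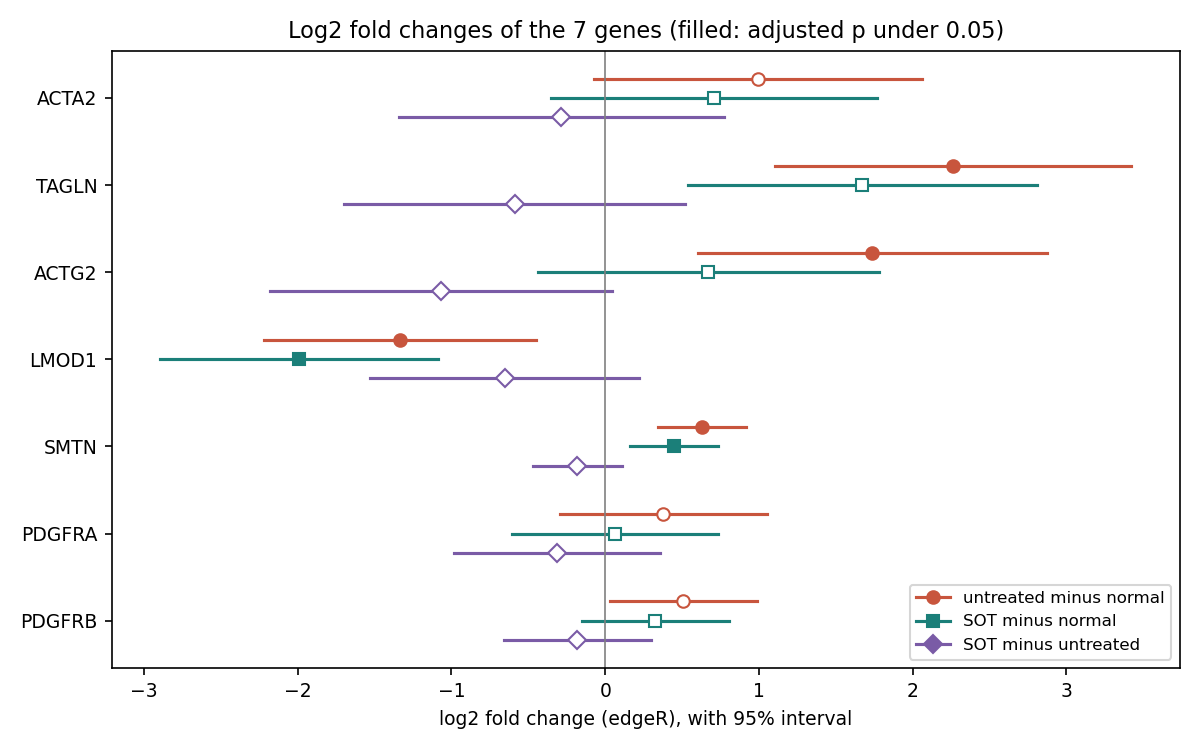
Log2 fold changes (x axis) of the 7 genes with 95% intervals for untreated minus normal (circles), SOT minus normal (squares) and SOT minus untreated folds (diamonds); filled symbols passed the threshold. The 7 diamonds lie left of 0 and none is filled, and LMOD1 is the gene whose filled symbols lie on the negative side.

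The SOT group was uneven for part of these genes. The SD of log2 CPM among SOT libraries was 1.07 for ACTA2, 1.15 for TAGLN, 1.14 for ACTG2, 0.73 for PDGFRA and 0.68 for LMOD1, against a median of 0.30 over all tested genes. Among untreated libraries it was 0.32 for ACTA2, 0.04 for TAGLN, 0.21 for ACTG2, 0.0856 for PDGFRA and 0.56 for LMOD1, against a median of 0.17. LMOD1 thus varied in the untreated group too, where its SD exceeded that of 84.2% of genes, against 78.5% in SOT folds. SOT replicate 3 was the lowest SOT library for all 7 genes and was below every untreated library for each of them. Without it, 4 of the 7 genes were higher in SOT than in normal folds: ACTA2 (log2 fold change 1.14, adjusted p = 0.0411), TAGLN, ACTG2 (1.11, adjusted p = 0.0392) and SMTN. Each of these 4 passed in 1 of the 9 fits that left out a library, namely this one. Since replicate 3 was singled out for its low values of these genes, leaving it out raises their SOT means by construction. In that fit 11.3% of all 17658 genes tested were higher in SOT folds, against 9.01% with all libraries.

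The endothelial and cartilage sums of SOT replicate 3 also stood apart from those of the other injured libraries, while some other sums did not. Its activated fibroblast sum (23955 CPM) was near that of SOT replicate 1 (24121 CPM). Its macrophage sum (811 CPM) was near that of SOT replicate 2 (849 CPM). The sum of 13 endothelial markers, such as PECAM1, CDH5 and KDR, was 2004, 1212 and 777 CPM in SOT folds, 1751, 1936 and 1881 CPM in untreated folds and 625, 1010 and 775 CPM in normal folds. The sum of 8 cartilage markers was 179, 123 and 535 CPM in SOT folds, 147, 114 and 81.4 CPM in untreated folds and 2902, 4592 and 2244 CPM in normal folds. SOT replicate 3 thus had the lowest endothelial and the highest cartilage sum of the 6 injured libraries. Of the markers, 6 endothelial ones rose and 7 cartilage ones fell in untreated relative to normal folds, beside 17.7% and 15.1% of all genes. COL9A1 was the one at 0 in a library (untreated replicate 3). The part of tissue content in the spread of the members was not tested.

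**Figure D3:**
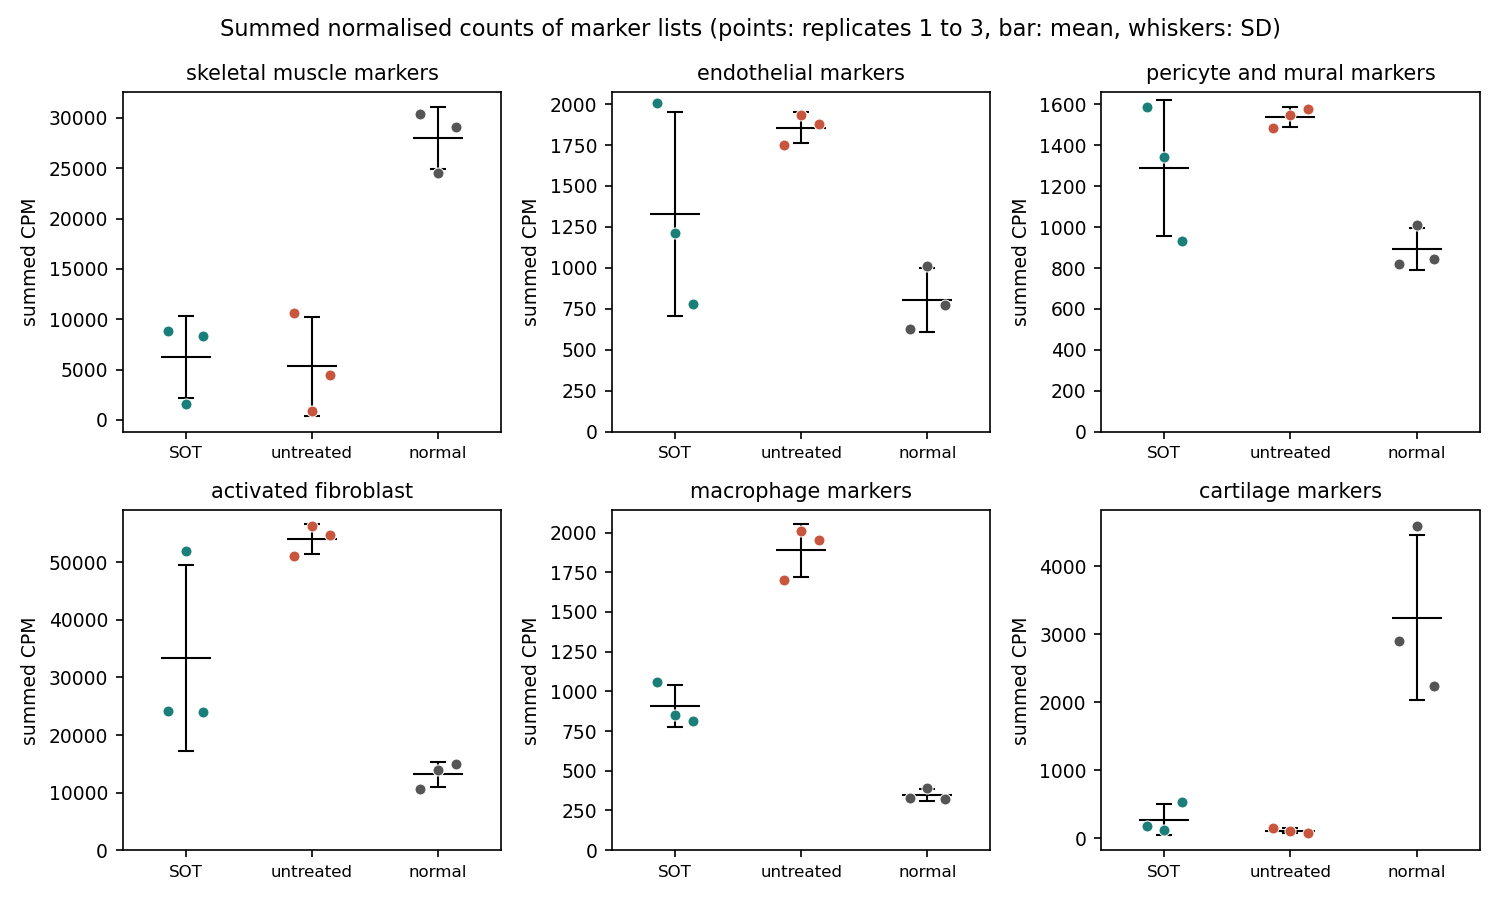
Summed TMM-normalised CPM (y axes, linear) of 6 marker lists in SOT, untreated and normal folds; points are replicates 1 to 3 from left to right, with the mean (bar) and SD (whiskers). The skeletal muscle sum is at most 10644 CPM in injured folds and 24583 CPM or more in normal ones, and the mural sum is lowest among injured folds in SOT replicate 3 (932 CPM).

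Per length, the order of the 7 genes differed between groups. In SOT folds the mean FPKM was 284 for ACTA2 and 274 for TAGLN, whose libraries overlapped, then 59.2 for PDGFRB, 30.6 for PDGFRA, 28.3 for SMTN and 26.4 for ACTG2, of which the last 3 overlapped with one another in that order, and 4.06 for LMOD1. In untreated folds TAGLN was first at 374, overlapping with ACTA2 at 316. PDGFRB at 61.0 overlapped with ACTG2 at 50.8, and PDGFRA at 34.9, SMTN at 29.1 and LMOD1 at 5.88 followed without overlap. In normal folds ACTA2 came first at 162 without overlap, TAGLN at 79.6 and PDGFRB at 43.9 overlapped, PDGFRA stood at 27.4, and SMTN at 19.3, ACTG2 at 15.5 and LMOD1 at 15.1 overlapped with their neighbours. LMOD1 thus had the lowest mean in every group. It was below ACTG2 in all injured libraries and in normal replicate 1, and above it in normal replicate 2 (16.3 FPKM for LMOD1 and 15.7 for ACTG2) and normal replicate 3 (12.4 and 10.2 FPKM).

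Ratios of FPKM within a library set members against each other in 9 exact permutation tests, in which 3 against 3 libraries cannot give a p below 0.1. The ratio of ACTA2 to LMOD1 was 46.8, 137 and 40.9 in SOT folds, 46.6, 65.5 and 56.3 in untreated folds and 12.0, 10.7 and 8.96 in normal folds. Both injured groups lay wholly above normal folds, with log2 differences of 2.61 for SOT and 2.41 for untreated folds (two-sided exact permutation p = 0.1 each, adjusted p = 0.225). Between SOT and untreated folds the ratio overlapped (0.20, exact permutation p = 0.9).

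The ratio of ACTG2 to ACTA2 was 0.138, 0.0656 and 0.0860 in SOT folds, 0.152, 0.180 and 0.157 in untreated folds and 0.104, 0.0899 and 0.0915 in normal folds. It was higher in every untreated library than in any other library, with log2 differences of -0.82 for SOT minus untreated folds and 0.78 for untreated minus normal folds (exact permutation p = 0.1 each, adjusted p = 0.225). SOT and normal folds overlapped (-0.05, exact permutation p = 0.8). The ratio of PDGFRA to PDGFRB was 0.725, 0.482 and 0.334 in SOT folds, 0.592, 0.595 and 0.533 in untreated folds and 0.787, 0.469 and 0.710 in normal folds, with overlap in all 3 comparisons (exact permutation p between 0.5 and 0.6).

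**Figure D4:**
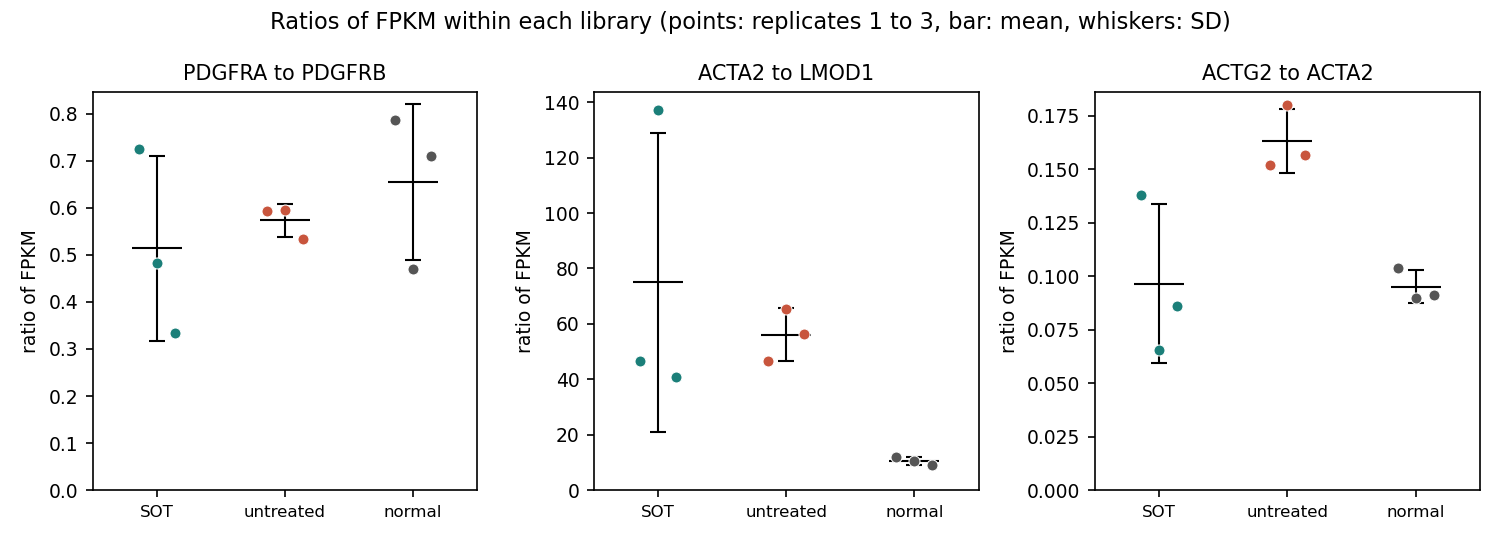
Ratios of FPKM (y axes, linear, from 0) within each library for 3 pairs of genes in SOT, untreated and normal folds; points are replicates 1 to 3 from left to right, with the mean (bar) and SD (whiskers). ACTA2 to LMOD1 is 40.9 or more in injured folds and 8.96 to 12.0 in normal folds, and ACTG2 to ACTA2 is highest in the 3 untreated libraries.

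For each member the 3 genes with the most similar profile were found among 12479 genes with a symbol and a mean of at least 1 CPM, as the root mean square difference of centred log2 CPM over the 9 libraries. ACTA2 was closest to SPRY4 (0.24), the myosin light chain gene MYL9 (0.27) and the Notch ligand gene JAG1 (0.31), where the median candidate differed by 0.76. TAGLN was closest to the cadherin gene CDH11 (0.21), PMEPA1 (0.21) and the integrin gene ITGB3 (0.26), where the median candidate was at 1.14. LMOD1 was closest to MYH11 (0.32), the smooth muscle myosin heavy chain, then ARHGAP20 (0.33) and ECHDC2 (0.34), with a median of 1.03. ACTG2 was closest to NFIL3, ENO2 and CRISPLD2 (0.25 to 0.30, median 1.00) and SMTN to ASXL1, PIGM and SH3BGRL3 (0.06 to 0.07, median 0.41). PDGFRA was closest to PGF, FADS2 and SRF (0.15 to 0.16, median 0.50) and PDGFRB to XYLT2, POFUT2 and UGDH (0.08 to 0.09, median 0.43). Differences are smaller for genes that vary little, so they do not compare directly across members. Among the members, ACTA2 and ACTG2 differed by 0.46, with 1.49% of candidates closer to ACTA2 and 0.329% closer to ACTG2. SMTN and PDGFRB differed by 0.18, with 4.82% of candidates closer to SMTN and 0.930% closer to PDGFRB. LMOD1 differed from TAGLN by 1.81, with 95.8% of candidates closer to LMOD1.

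Genes of the wider contractile apparatus went both ways, as all tested genes did. As background for this and the following lists, 17.7% of all tested genes rose and 15.1% fell in untreated folds relative to normal folds. In SOT folds relative to normal folds 9.01% rose and 7.67% fell. These shares also moved with a library left out. They were 10.8% and 6.94% in untreated folds without untreated replicate 3, and 3.27% and 3.16% in SOT folds without normal replicate 1. Of 23 further contractile and adhesion genes of smooth muscle, 7 rose, 5 fell (TPM2, SYNM, TPM1 and MYH11 among them) and 11 did not pass in untreated folds relative to normal folds, with a median log2 fold change of 0.10. The count that rose was 4 without normal replicate 3 and 5 to 8 without any one of the others, and the count that fell was 2 without untreated replicate 3, 3 without untreated replicate 2 or normal replicate 1, and 4 to 6 without any one of the others. The genes with the smallest p encode proteins that link actin to adhesions: VCL, vinculin (1.18, adjusted p = 0.00178), PDLIM7 (1.89, adjusted p = 0.00330) and ACTN1, alpha-actinin 1 (2.03, adjusted p = 0.00445). For SOT folds against normal folds 4 rose (PDLIM7, VCL, ACTN1 and LPP) and 3 fell (TPM2, SYNM and TPM1), with a median of -0.01. The count that rose was 9 without SOT replicate 3, 4 without untreated replicate 1 or 2, and 0 or 1 without any one of the others, and the count that fell was 2 to 4. The smallest p belonged to the tropomyosin gene TPM2 (-1.90, adjusted p = 0.0146) and the intermediate filament gene SYNM (-2.87, adjusted p = 0.0151). TPM1, TPM2 and SYNM are also expressed in skeletal muscle, whose markers were lower in the same libraries as given above.

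MYH11 had 145, 44.96 and 42.6 CPM in SOT folds, 102, 53.5 and 69.1 CPM in untreated folds and 292, 259 and 140 CPM in normal folds. It fell in untreated folds relative to normal folds (log2 fold change -1.62, adjusted p = 0.0441). The call was lost without any one of the 3 untreated libraries or of normal replicates 1 and 2 (up to 0.141, without untreated replicate 2). In SOT folds it did not pass (-1.57, adjusted p = 0.0720), and SOT replicate 1 overlapped with normal replicate 3. DES, the desmin gene of muscle, ranged from 170 to 1978 CPM in SOT folds, from 104 to 793 CPM in untreated folds and from 922 to 1216 CPM in normal folds and passed in neither comparison with normal folds.

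Of 18 genes that control contraction, 7 rose and 4 fell (PRKG1, PPP1R12B, KCNMA1 and PPP1R14A) in untreated folds relative to normal folds, beside 17.7% and 15.1% of all genes. The count that fell was 2 without untreated replicate 2 or 3 or normal replicate 1 or 2, and 4 or 5 without any one of the others, while 5 to 7 rose. ROCK1, the kinase that keeps myosin light chains phosphorylated, rose (0.72, adjusted p = 0.00185), PRKG1, the kinase of nitric oxide and cGMP relaxation, fell (-0.71, adjusted p = 0.00289), and RGS2, which shortens signals of Gq-coupled receptors, rose (3.37, adjusted p = 0.00334). For SOT folds against normal folds 3 rose (RGS4, ROCK1 and EDNRA) and 2 fell (PRKG1 and PPP1R12B). PRKG1 fell by 0.60 on the log2 scale there (adjusted p = 0.0123), a call kept without each of the 9 libraries, whereas RGS4, ROCK1, PPP1R12B and EDNRA were kept in 8, 7, 4 and 1 of these fits. RGS2 had 252, 111 and 42.1 CPM in SOT folds, 411, 480.0 and 464 CPM in untreated folds and 41.7, 44.6 and 44.4 CPM in normal folds. Every SOT library was below every untreated library, but the difference did not pass (-1.74, unadjusted p = 0.00915, adjusted p = 0.249), although it did by DESeq2 (adjusted p = 0.0232).

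Of 13 measured transcription factors and cofactors of the smooth muscle programme, 3 rose (MRTFA, FHL2 and WWTR1) and 2 fell (TEAD1 and KLF4) in untreated folds relative to normal folds, with a median of -0.01. Over all tested genes 17.7% rose and 15.1% fell in that comparison. MRTFA, the actin-sensing partner of SRF, rose (0.64, adjusted p = 0.00284), as did the LIM protein gene FHL2 (1.31, adjusted p = 0.00837). WWTR1, TEAD1 and KLF4 passed in 3, 4 and 3 of the 9 fits that left out a library. MRTFB did not pass (-0.01, adjusted p = 0.936), nor did SRF (0.55, adjusted p = 0.0673). MYOCD, the coactivator that drives the contractile genes of smooth muscle, was scarce, at 0.920, 0.579 and 0.465 CPM in SOT folds, 1.02, 0.743 and 0.984 CPM in untreated folds and 1.64, 1.61 and 1.83 CPM in normal folds. All injured libraries were below all normal ones. MYOCD passed in SOT folds relative to normal folds (-1.37, adjusted p = 0.0364), a call kept in 1 of these 9 fits (up to 0.105, without SOT replicate 2), and did not pass in untreated folds (-0.88, adjusted p = 0.0896). Relative to normal folds FHL2 rose in SOT folds too (1.45, adjusted p = 0.0123), and FOXF1 was the other factor gene that fell (-1.05, adjusted p = 0.0383, kept in 2 of the 9 fits without a library).

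Of 16 pericyte and mural markers other than PDGFRB, 10 rose and 3 fell (TBX18, HEY1 and CSPG4) in untreated folds relative to normal folds, with a median log2 fold change of 0.72. The count that rose was 3 without untreated replicate 3, 4 without untreated replicate 2, normal replicate 1 or normal replicate 3, and 8 to 10 without any one of the others. Their summed level was 1589, 1341 and 932 CPM in SOT folds, 1482.5, 1549 and 1579.9 CPM in untreated folds and 821, 1013 and 845 CPM in normal folds. CD248, also carried by fibroblasts, rose (1.61, adjusted p = 0.00373), and so did NDUFA4L2 (2.10, adjusted p = 0.00641) and the receptor gene NOTCH3 (0.49, adjusted p = 0.0129, 0.0577 without untreated replicate 3 and above 0.05 without normal replicate 3). RGS5, a widely used pericyte marker, had an estimate of 0.67 that did not pass (adjusted p = 0.0648). TBX18, a mural transcription factor gene, fell (-2.09, adjusted p = 0.000497). For SOT folds against normal folds 2 rose (NDUFA4L2 and KCNJ8) and 1 fell, TBX18 (-1.19, adjusted p = 0.00810), beside 9.01% and 7.67% of all genes. There the count that rose was 8 without SOT replicate 3 and 0 or 1 without any one of the others. TBX18 had 12.6, 13.2 and 14.2 CPM in SOT folds, 8.45, 6.81 and 6.18 CPM in untreated folds and 37.4, 29.3 and 24.3 CPM in normal folds, so that the 3 groups did not overlap. The difference between SOT and untreated folds did not pass (0.90, unadjusted p = 0.00121, adjusted p = 0.155), although it did by DESeq2 (adjusted p = 0.00171).

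Of the 4 ligand genes of the PDGF receptors, 1 rose in untreated and 1 fell in SOT folds, each relative to normal folds. Of all genes, 17.7% rose in the former and 7.67% fell in the latter comparison. PDGFB rose in untreated folds relative to normal folds (28.1, 36.7 and 36.5 CPM in untreated folds, against 18.9, 21.3 and 16.4 CPM in normal folds; log2 fold change 0.84, adjusted p = 0.0252), which was lost without untreated replicate 2 or 3 or normal replicate 1 or 3 (up to 0.0867, without normal replicate 3). PDGFA, PDGFC and PDGFD did not pass in that comparison (-0.29, 0.27 and -0.18). For SOT folds against normal folds PDGFD fell (91.3, 105 and 66.4 CPM in SOT folds, against 156, 142 and 124 CPM in normal folds; -0.69, adjusted p = 0.0374), a call kept in 3 of the 9 fits without a library (up to 0.116, without normal replicate 1). PDGFB in SOT folds, at 35.7, 36.6 and 20.6 CPM, did not pass (0.71, adjusted p = 0.0674).

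Fibroblast genes that accompany the myofibroblast state moved mostly in 1 direction. Of 21 genes of activated fibroblasts, 17 rose and none fell in untreated folds relative to normal folds (median log2 fold change 1.89), led by ASPN (4.75, adjusted p = 0.000219), TGFB1 (1.89, adjusted p = 0.000364) and CTHRC1 (4.10, adjusted p = 0.000540). For SOT folds against normal folds 14 rose and none fell (median 1.31). The count that rose was 6, 8 and 7 without normal replicate 1, 2 or 3, 9 without untreated replicate 3, and 10 to 15 without any one of the others. Of 16 genes of resting fibroblasts, 11 fell and 1 rose in untreated folds, and 6 fell and 1 rose in SOT folds, each relative to normal folds, with LUM, the lumican gene, as the one that rose in both. The 11 that fell were 5 to 8 without any one of the untreated or normal libraries. The medians were -1.09 in both comparisons.

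Between SOT and untreated folds no gene of these 7 lists of contraction, its signalling and transcription, mural cells, PDGF ligands and fibroblasts passed by edgeR's quasi-likelihood test. At an unadjusted p under 0.05, which 12.6% of all 17344 genes had, there were 3 of 23 contractile, 3 of 18 signalling, 2 of 13 transcription, 3 of 16 mural, 1 of 4 ligand, 5 of 21 activated and 2 of 16 resting fibroblast genes. DESeq2 called 1 signalling gene (RGS2), 2 activated fibroblast genes (TGFB1 and ASPN) and 1 resting fibroblast gene (DCN) lower and 1 mural gene (TBX18) higher in SOT folds. Over all 17344 genes DESeq2 called 3.93% in this comparison, 2.61% lower and 1.32% higher.

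**Figure D5:**
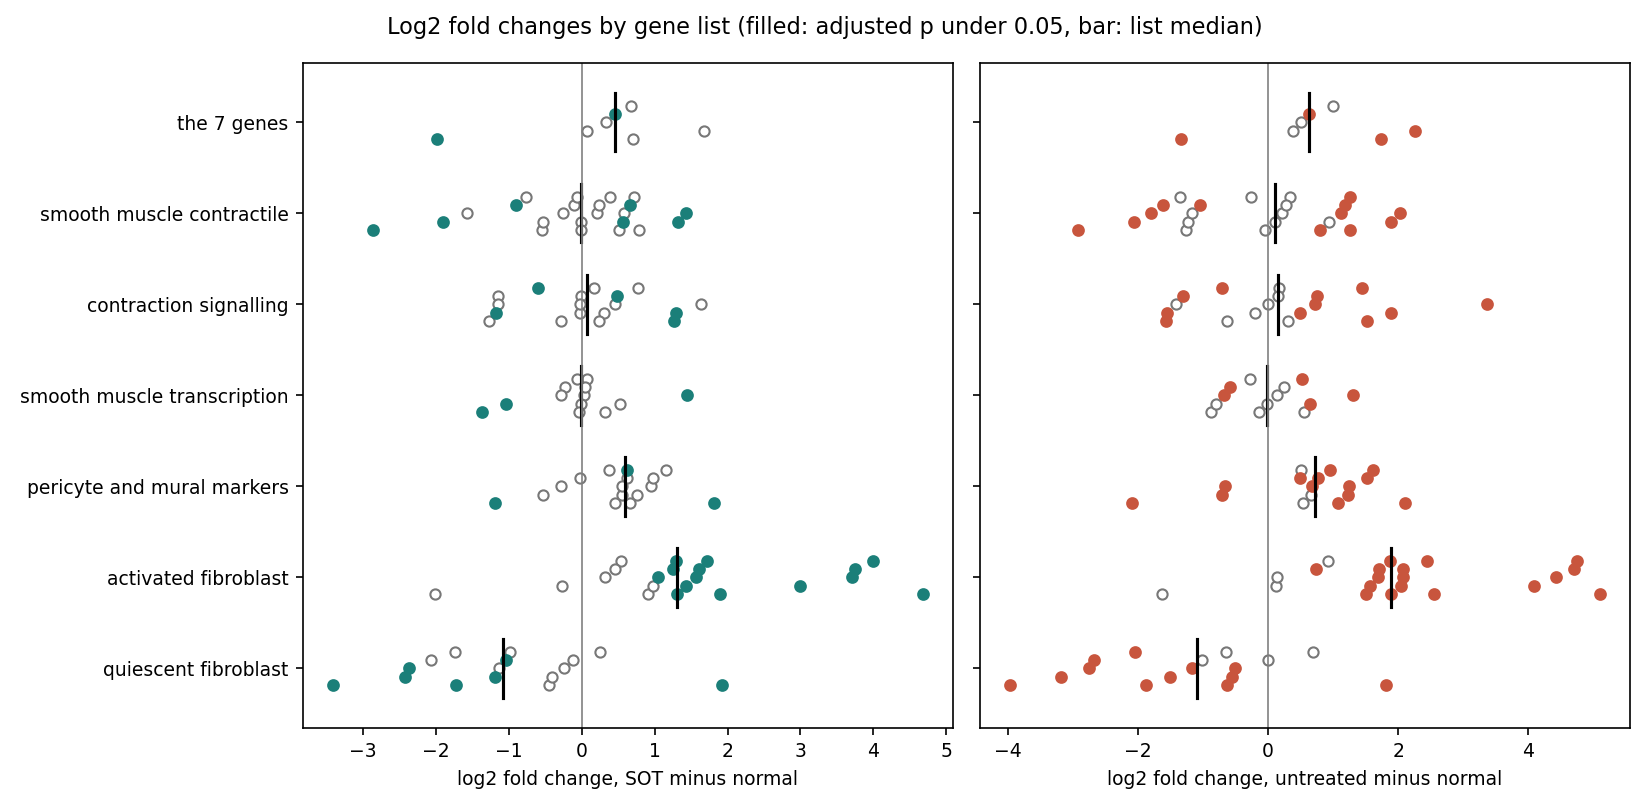
Log2 fold changes (x axis) of each tested gene by list, for SOT minus normal folds (left) and untreated minus normal folds (right, with a wider axis); filled points passed the threshold and the bar is the list median. The activated fibroblast list has its median at 1.31 on the left and 1.89 on the right, while the contractile list lies on both sides of 0 with medians of -0.01 and 0.10.

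Paralogues of the members were compared in the same way. Of 15 measured paralogues, 4 rose and 5 fell in untreated folds relative to normal folds, beside 17.7% and 15.1% of all genes. The count that fell was 1 without untreated replicate 3, 2 without normal replicate 1, 3 without untreated replicate 2 or normal replicate 2, and 4 to 6 without any one of the others, while 3 or 4 rose. Those that rose were the cytoplasmic actin ACTB, TAGLN2 (1.01, adjusted p = 0.00762), CNN3 (0.61, adjusted p = 0.0361, kept in 3 of the 9 fits without a library) and CSF1R (2.22, adjusted p = 0.000300), a macrophage receptor kinase of the same family as the PDGF receptors. Those that fell were ACTA1, SMTNL1 (-3.74, adjusted p = 0.00826), SMTNL2, LMOD3 and TMOD1, the last 3 of which were kept in 7, 5 and 3 of these fits. ACTA1 and LMOD3 are genes of striated muscle, and skeletal muscle markers fell with them. In SOT folds relative to normal folds 1 paralogue rose and 1 fell, beside 9.01% and 7.67% of all genes. Between SOT and untreated folds none passed by edgeR's quasi-likelihood test. ACTG1 and CNN2 were not analysed here.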

How the data were processed

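Cutadapt 1.9, HISAT2 2.0.4, StringTie 1.3.4d and edgeR, with the build OryCun2.0, were used by the authors, per the submitters' processing notes. The settings, the strand and how multi-mapping reads were treated are not given in the sources. Per the file headers, the deposited table held read counts and FPKM for every gene and library. Deposited counts were tested in R 4.3.3 with edgeR 4.0.16: filterByExpr by group, TMM scaling, and a quasi-likelihood fit of 1 mean per group over all 9 libraries, with Benjamini-Hochberg adjustment over 17344 genes at 0.05. The code was tested on simulated counts. Levels are TMM CPM with the SD of 3 libraries, and intervals are at 95%. FPKM served for levels between genes and for ratios, compared by two-sided exact permutation tests without a pseudocount, adjusted over 9 tests.

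The members and the 14 gene lists were chosen with earlier results of these data known. All members were named, and of each list the genes with the 3 smallest p among those that passed (2 where none did). MYOCD, SRF, MRTFA, MRTFB, KLF4, MYH11, DES, RGS5, CSPG4, NOTCH3, the ligands and the paralogues were open to naming in any case. Genes named to complete a count of 5 or fewer were chosen after their values were seen. Across the lists, 11 genes were matched by an older symbol or Gene ID. The remaining lists were markers of skeletal muscle, endothelium, basal epithelium, nerve, cartilage and macrophages. Alternatives were DESeq2 1.42.0, RLE factors, no filter, 2-group fits, a replicate block, limma 3.58.1 on log2 FPKM with pseudocounts of 0.1 and 1, and leaving out each library. Floors cover counting error alone, and without molecular identifiers a read does not stand for its own molecule. Some list genes are counted but not reported singly here.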

Additional observations from a re-analysis of the deposited data

How the results depend on the processing

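TAGLN and SMTN in untreated against normal folds passed under all 16 other settings. In that comparison 5 members were higher, against 3, in a fit of these 2 groups alone, where 6502 of all genes passed, against 5692 (20.1% and 17.7% higher); with a library left out, 2 to 5 were higher, 0 to 1 lower, and 3145 to 6026 genes passed (3145 and 3418 without untreated replicates 3 and 2). In SOT against normal folds (2894 genes, 1 member higher), 4819 genes passed by DESeq2, 1578 with 2 groups and 1135 to 3222 with a library left out (1135, 1442, 1680 and 1783 without normal replicate 1, normal replicate 2, SOT replicate 2 and untreated replicate 3). Members higher numbered 2 by DESeq2, 0 with RLE factors, without a filter or with 2 groups, and 0 to 4 with a library left out (0 to 1 lower). In SOT against untreated folds (2 genes), 682 passed by DESeq2, 0 with 2 groups, 0 and 27 by limma on log2(FPKM + 0.1) and log2(FPKM + 1), and 0 to 397 with a library left out (397 without SOT replicate 1), with no member among them. The cause of these shifts was not tested.

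With group means removed, same-numbered libraries correlated between -0.05 and 0.27. The same-numbered library was the closest for replicates 1 and 2 in SOT against untreated folds and for 1 and 3 in untreated against normal folds. In SOT against normal folds this held for replicate 3 alone. With 3 libraries per group these values cannot show whether a number marks a shared animal or day. With a replicate block, 0 genes passed in SOT against untreated and 0 members were higher in SOT against normal folds, PDGFRB passed in untreated against normal folds (adjusted p = 0.0478), and PDGFRA in SOT against normal folds was -0.00494.

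Estimates that changed sign had not passed. With a library left out, PDGFRA in SOT against normal folds ran from -0.21 (without SOT replicate 1) to 0.40, and in SOT against untreated folds ACTA2 ran from -0.75 to 0.15 and PDGFRA from -0.58 to 0.0305, each above 0 without SOT replicate 3. The log2 ratios in SOT against untreated folds ran from -0.51 to 0.0460 for PDGFRA to PDGFRB (0.0460 without SOT replicate 3) and from -0.35 to 0.53 for ACTA2 to LMOD1 (-0.35 without SOT replicate 2). ACTG2 to ACTA2 in SOT against normal folds ran from -0.34 to 0.20 (0.20 and 0.00322 without SOT replicates 2 and 3, 0.02 without normal replicate 1).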

Other observations

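Markers of other tissues that the account above does not use also differed from normal folds. Of 10 nerve and Schwann cell markers, 6 fell in SOT folds (2 without normal replicate 2, 3 without normal replicate 1 or SOT replicate 3, and 4 to 6 without any one of the others) and 6 in untreated folds (6 to 9 with a library left out), each relative to normal folds, including the peripheral myelin gene PMP22 (log2 fold changes -1.39 in SOT folds, adjusted p = 0.00249, and -1.92 in untreated folds, adjusted p = 0.000219, by edgeR's quasi-likelihood test). Their summed level was 128 to 264 CPM in SOT folds, 122 to 177 CPM in untreated folds and 645 to 866 CPM in normal folds. Of 9 basal epithelial markers, a list that also covers myoepithelial cells, which can carry ACTA2, 4 rose and 1 fell in SOT folds (0 to 4 and 0 to 2 with a library left out) and 5 rose and 2 fell in untreated folds. Their sum was 4277 to 6299 CPM in SOT folds, 4957 to 9289.6 CPM in untreated folds and 2933 to 4721 CPM in normal folds.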
